A study of Arabidopsis thaliana with 8 samples.

Results

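The transcripts described here were higher in seedlings of the ANAC096 line than in empty vector seedlings both with and without abscisic acid (ABA), while their levels with and without ABA differed by less than 2-fold in either line when each array was scaled to its 75th percentile. When the arrays were scaled to spike-in RNAs instead, it held for 78 of the 151. They comprised 151 of 43603 array probes (0.346%). A probe was a member when its mean log2 level met 5 conditions: a line difference of at least 1.5 without ABA, a line difference of at least 1.5 with ABA, an ABA difference between -1 and 1 in each line, and a level of at least -6 in the ANAC096 group. Levels are log2 spot signals relative to the 75th percentile of the same array, so a level of 0 is the signal at that percentile. Because these conditions used the means of all groups, every group difference of the members is given as a description, and no test of it is offered as support.

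Arabidopsis thaliana Col-0 seedlings aged 12 days, grown in liquid MS medium, were profiled on 8 one-colour Agilent arrays, 2 for each of 4 groups. The ANAC096 group carried pTA-ANAC096 and received 30 µM dexamethasone for 1 h. The ANAC096+ABA group carried the same construct and received 30 µM dexamethasone for 1 h, with 2 µM ABA over the last 30 min. The ABA group carried the pTA empty vector and had the same dexamethasone and ABA exposure. The control group carried the empty vector and had dexamethasone alone for 1 h. Dexamethasone was thus common to all 4 groups, and a difference between the lines that existed before induction cannot be told apart from one caused by the induced protein. The series' text calls the 2 samples of a group biological replicates, but how many independent transgenic lines were used, and whether seedlings were pooled, is not given in the sources used here. RNA came from whole seedlings, so more cells of a type and more RNA per cell cannot be told apart.

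NAC proteins are a large plant family of transcription factors that bind DNA through a conserved N-terminal NAC domain and activate genes through a variable C-terminal region. ABA is the hormone of drought and osmotic stress: its receptors inhibit a set of protein phosphatases, which frees SnRK2 kinases to activate bZIP factors that bind ABA-responsive elements in promoters. Many stress-related NAC genes are themselves induced by ABA, and the series' title places ANAC096 with bZIP factors in dehydration and osmotic stress. The members described here are the probes whose line difference was present whether or not the hormone was added. The scanner files identify probes only by the array maker's code and hold no probe sequence, and 0 of the 43603 codes occurred in the RefSeq gene table used here. The members therefore carry no gene names. A probe for ANAC096 itself could not be identified, among the members or outside them, so the identity of the lines and of the tissue rests on the labels.

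The members separated the lines on every array. Their median level was -2.32 and -2.36 on the 2 ANAC096 arrays, against -4.35 and -4.28 on the 2 control arrays. With ABA, it was -2.09 and -2.03 on the ANAC096+ABA arrays, against -4.11 and -4.06 on the ABA arrays. Both line arrays lay above both empty vector arrays at 151 of 151 members without ABA and at 150 of 151 with ABA. Over all 43603 probes this was so for 39.9% without ABA and 30.9% with ABA. The rule chose on these same values, so nothing is read from the gap to the background.

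On the 75th percentile scale the median line difference was of similar size without and with ABA, while with spike-in scaling it was 1.45 without ABA and 2.39 with it. On the 75th percentile scale, the median member was higher by 2.07 in ANAC096 than in control (4.20-fold) and by 2.02 in ANAC096+ABA than in ABA (4.07-fold). The quartiles of the members were 1.77 and 2.31 without ABA and 1.74 and 2.39 with ABA. Both line differences reached 2, a 4-fold change, at 61 members, 1 of the 2 did at 41, and neither did at 49. Some of these members had no signal well above background in the empty vector line, where the differences are not measured exactly. Among the 131 members well above background on all 8 arrays, both line differences reached 2 at 50 members, 3 at 4 members and 4 at 1 member. Across the 151 members the 2 line differences, which share no array, correlated at Pearson r 0.81 and Spearman rho 0.53. This correlation is a description: the thresholds truncate both differences, and without the member of largest difference r was 0.72. The conditions on the ABA differences also tie the 2 line differences of a member to each other, so their likeness follows in part from the choice.

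The member ranked first by the smaller of its 2 line differences was A_84_P21604. Its level was 3.03 and 2.97 on the ANAC096 arrays, against -4.04 and -3.95 on the control arrays. With ABA, it was 3.20 and 3.42 on the ANAC096+ABA arrays, against -3.32 and -3.30 on the ABA arrays. It was measured above background on all 8 arrays, and its levels in the ANAC096 line were 128-fold above control and 98.5-fold above the ABA group. Its smaller line difference was 6.62, and the next largest among the members well above background on all 8 arrays was 3.24. ABA differences of this probe were 0.31 in the ANAC096 line and 0.68 in the empty vector line.

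A_84_P792258 ranked next, at a far lower level. It had -4.01 and -4.11 on the ANAC096 arrays, against -8.83 and -8.80 on the control arrays. It had -3.78 and -3.53 on the ANAC096+ABA arrays, against -9.23 and -9.47 on the ABA arrays. None of the 4 empty vector arrays gave a signal well above background, so only a bound can be given there, on the processed signals. On these the ANAC096 level was at least 16.7-fold higher than the control level. The ANAC096+ABA level was at least 12.6-fold higher than the ABA level. The bound sets the line's mean against, per array, the higher of the probe's own signal and the lowest probe signal well above background. The processed signals gave log2 differences of 4.75 and 5.69, while normexp background correction gave 2.55 and 2.66. The authors' own log2 values gave 2.38 and 2.95, so the bounds do not hold under either alternative. The next-ranked member was likewise well above background in the ANAC096 line only, at -4.63 and -4.66 in ANAC096 and -3.75 and -3.80 in ANAC096+ABA. Its bounds on the processed signals were at least 11.2-fold over control and at least 11.6-fold over the ABA group.

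The members ranked 4 and 5 were brighter and were well above background on every array. The member ranked 4 had 0.71 and 0.69 in ANAC096, against -2.54 and -2.53 in control. With ABA it had 1.29 and 1.21 in ANAC096+ABA, against -2.05 and -2.03 in the ABA group. These levels gave a 9.43-fold line difference without ABA and 9.78-fold with it. The member ranked 5 had 1.42 and 1.44 in ANAC096, against -1.88 and -1.93 in control, a 10.1-fold difference, and it differed 9.15-fold with ABA. For these members replicate arrays of a group lay within 0.1 of each other, and the lines were separated by more than 3. The 20 members ranked 6 to 25 had line differences of 2.27 to 3.14 without ABA and 2.29 to 4.11 with ABA. Of these 20, 18 were measured above background on all 8 arrays. Over all 20, mean levels ran from -5.63 to 1.52 in ANAC096, against -8.37 to -1.13 in control. The level of -8.37 belonged to a member well above background on no control array.

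The members spanned a wide range of levels. Their mean level in ANAC096 ran from -5.98 to 4.21 with a median of -2.32, close to the median of -2.38 over all probes in that group. In control the members' median was -4.29, against -2.40 over all probes. Members had to reach -6 in ANAC096 and to be lower in control, while all probes had no such condition. Nothing is therefore read from these medians. Split by mean level over all arrays, the 50 members of lowest level had median line differences of 2.12 without ABA and 2.07 with ABA. Only 30 of these 50 were well above background on all 8 arrays, and at the rest some differences are not measured exactly. The 51 members of highest level, all well above background on all 8 arrays, had 2.05 and 1.96. The brightest member of all had 4.25 and 4.17 in ANAC096, against 2.51 and 2.58 in control. With ABA it had 4.65 and 4.63 in ANAC096+ABA, against 3.12 and 3.10 in the ABA group. Even in the empty vector line this probe lay above the 75th percentile of the array, and its line difference was near the threshold, at 1.66 without ABA and 1.53 with it. The median replicate SD was 0.08 among the 50 dimmest and 0.033 among the 51 brightest, so the brighter members carry the smaller error.

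The choice of members set where they could be detected: the minimum level of -6 in ANAC096 lies above the lowest levels well above background on those arrays, -7.78 and -7.76, and the empty vector levels had to be lower. Detection is therefore given as a description. All 4 ANAC096 line arrays were well above background at 150 of 151 members, and all 8 arrays at 131. Both control arrays were above background at 139 members and both ABA arrays at 131. No control array was above background at 6 members and no ABA array at 16. For these dim members only a bound can be given, and it holds for the processed signals alone. It was at least 4.48-fold to at least 16.7-fold over control at the 5 measured on both ANAC096 arrays. Over ABA it was at least 1.71-fold to at least 12.6-fold at 16. The arrays with ABA as a whole had fewer probes above background, 75.6% to 76.6% of 43603, than the arrays without it, 78.5% to 80.2%.

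The label "ABA-independent" held only as the rule defines it, as a change under 2-fold. On the 75th percentile scale the ABA differences of the members were small and mostly above 0. The median was 0.28 in the ANAC096 line and 0.26 in the empty vector line (log2), whereas the medians over all probes were 0.03 and -0.01. Values above 0 in both lines were found at 113 members, values below 0 in both at 12, and opposite signs at 26. Both ABA differences lay within 0.25 of 0 at 18 members and within 0.5 at 90. In the ANAC096 line both ANAC096+ABA arrays lay above both ANAC096 arrays at 118 members, beside 40.5% of all probes. In the empty vector line both ABA arrays lay above both control arrays at 103 members, beside 35.8% of all probes.

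That sign depended on the scaling. The E1A spike-ins, RNAs added in fixed amounts during labelling, did not stay level after scaling to the 75th percentile: their mean log2 level was 0.66 ± 0.09 in ANAC096, against 0.04 ± 0.005 in control, and -0.05 ± 0.17 in ANAC096+ABA, against 0.31 ± 0.05 in ABA (SD, n = 2). Setting the spike-ins equal instead shifted every probe by 0.71 for ANAC096+ABA minus ANAC096 and by -0.27 for ABA minus control. On that scale the median ABA difference of the members was 0.99 in the ANAC096 line and -0.01 in the empty vector line. An ABA difference between -1 and 1 then remained at 79 members in the ANAC096 line and at 150 in the empty vector line, and 69 were above 0 in the empty vector line, against 124 on the 75th percentile scale. Which scale is closer to the amounts of RNA in the seedlings was not tested.

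For the line difference, spike-in scaling shifted every probe by -0.62 without ABA and by 0.36 with ABA. Members chosen at 1.5 or more could therefore not change sign, and with ABA none could fall below 1.5. Without ABA the threshold was still met by 66 members. Compared between conditions, the line difference was larger with ABA at 76 members and larger without ABA at 75 on the 75th percentile scale, the median of their difference being 0.001. They lay within 0.25 of each other at 82 members and within 0.5 at 123. The gap between a member's line differences equals the gap between its ABA differences. The rule limited the ABA differences, so these values follow in part from the choice and are a description. With spike-in scaling the line difference was larger with ABA at 149 members.

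More than 1 separated the line differences of 5 members on the 75th percentile scale, and 3 of these were well above background on all 8 arrays. One of them, ranked 7, had 1.53 and 1.52 in ANAC096, against -1.38 and -1.47 in control. With ABA it had 1.99 and 2.00 in ANAC096+ABA, against -2.11 and -2.11 in the ABA group, so that its line difference was 2.95 without ABA and 4.11 with it. Its ABA differences were of opposite sign, 0.47 in the ANAC096 line and -0.68 in the empty vector line. Of the 3, only 1 had the larger line difference without ABA. It had -1.27 and -1.27 in ANAC096, against -4.17 and -3.74 in control, and -2.16 and -2.23 in ANAC096+ABA, against -3.78 and -3.80 in ABA. Its line difference was 2.68 without ABA and 1.60 with it. A wider gap in that direction, -1.73, belonged to a member with replicates far apart in ANAC096 and no signal well above background in the empty vector line. Opposite ABA signs of the first kind, higher with ABA in the ANAC096 line and lower in the empty vector line, occurred at 15 members, and those of the second kind at 11.

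The members closest to their name were probes with almost no ABA difference on the 75th percentile scale. The one with the smallest had -1.02 and -1.06 in ANAC096 and -1.07 and -1.09 in ANAC096+ABA, against -2.90 and -2.72 in control and -2.79 and -2.76 in ABA. Its 4 values in the ANAC096 line lay within 0.1 of each other, and its line difference was 1.77 without ABA and 1.69 with it.

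Replicate arrays were close at most members. In all 4 groups the replicates lay within 0.3 of each other at 120 members. The median replicate SD was 0.040 in ANAC096, 0.041 in ANAC096+ABA, 0.046 in ABA and 0.090 in control, and over all 34714 probes measured in at least 1 group it was 0.049, 0.046, 0.033 and 0.069. Replicates were more than 1 apart in some group at 7 members. The widest gap was -7.73 and -2.91 in ANAC096, at a member not above background on the first of these arrays or on any empty vector array. A second member had -2.85 and -6.60 in ANAC096+ABA. Another, with -6.56 and -4.58 in ANAC096+ABA against -6.01 and -8.53 in ABA, was the member whose groups overlapped. Each of the 7 failed the 5 conditions when some single array was left out, and the first 2 described here failed them without either array of the widely spaced pair.

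Choosing on 1 replicate number and reading the other gave values that the choice had not used. Applied to the replicate 1 arrays alone, the 5 conditions chose 158 probes, and 127 of them (80.4%) met all 5 again on the replicate 2 arrays, where 0.33% of all probes did. Applied to the replicate 2 arrays alone they chose 144, of which 127 (88.2%) met them again on the replicate 1 arrays, where 0.362% of all probes did. The 158 probes had a median line difference of 1.98 without ABA and 2.03 with ABA on the arrays not used. The 144 had 2.14 and 2.03. Both line differences were above 0 on the arrays not used at 156 of the 158 and at 144 of the 144. With 1 array a group on each side, no test was possible. The 5 conditions had been set with earlier results of these data known, and the replicates may be technical. These values therefore describe repeatability between arrays only.

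Repeated spots gave a further reading within arrays. Of the members 72 had 2 spots and 79 had 1, and no member spot was flagged as an outlier. The 2 spots of a probe differed by a median of 0.066 in the line difference without ABA and 0.061 in that with ABA, the largest gaps being 0.61 and 1.06. Taken singly, both spots met all 5 conditions at 66 of the 72 probes, 1 of the 2 spots at 5 and neither at 1. The rule had used the mean of these same 2 spots, so these counts follow in part from the choice. Spots of 1 array share its RNA, so their spread is technical only.

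The group was a small part of what was higher in the ANAC096 line without ABA. Of all probes, 1620 (3.72%) had a line difference of at least 1.5 without ABA and 734 (1.68%) with ABA. An ABA difference between -1 and 1 was held by 92.0% of all probes in the ANAC096 line and by 91.8% in the empty vector line. Of the 1083 that also had the minimum level in ANAC096, 274 (25.3%) kept a line difference of at least 1.5 with ABA. A further 106 of these 274 were left out because ABA alone raised them by 1 or more in the empty vector line, and 1 because it was lower there by 1 or more. In the ANAC096 line, 11 more were left out for being higher with ABA by 1 or more and 5 for being lower. The mirrored conditions, with both line differences at -1.5 or less and the level set in control, were met by 57 probes, whose median line differences were -2.22 without ABA and -2.03 with ABA. Their median ABA differences were 0.20 in the ANAC096 line and -0.07 in the empty vector line. Whether the 2 sets differ in their response to ABA was not tested, since both were chosen by it.

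The thresholds had no natural gap beside them. The members nearest the bound had line differences of 1.501 without ABA and 1.506 with ABA, while the nearest probes outside, meeting every other condition, had 1.492 and 1.498. Within 0.1 of the threshold lay 15 members inside and 13 probes outside for the difference without ABA, and 14 and 10 for that with ABA. For the ABA difference the nearest values were -0.97 inside and 1.01 outside in the ANAC096 line, and 0.98 inside and 1.03 outside in the empty vector line. For the level they were -5.98 inside and -6.01 outside.

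In limma's fit over 34714 probes, all 151 members were among those tested, and 149 were called higher in ANAC096 against control at an adjusted p under 0.05 and 0 lower, beside 26.7% and 32.7% of all tested probes, and with spike-in scaling 150 and 0, beside 7.45% and 74.5% of all. For ANAC096+ABA against ABA, 148 were called higher and 0 lower, beside 22.1% and 22.7% of all, and with spike-in scaling 151 and 0, beside 46.4% and 5.59% of all. For ANAC096+ABA against ANAC096, 87 were called higher and 12 lower, beside 22.2% and 23.0% of all, and with spike-in scaling these became 138 and 0, beside 82.4% and 3.85% of all. For ABA against control, 84 were called higher and 12 lower, beside 18.5% and 28.9%, and with spike-in scaling 10 and 22, beside 8.21% and 47.4%. The rule used each of these differences, so the counts describe the members and support nothing. The 4 ANAC096 line arrays lay in other columns of the slide than the empty vector arrays, and arrays with and without ABA in different rows, so position on the slide and treatment cannot be told apart.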

How the data were processed

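Total RNA from whole seedlings was hybridised to one-colour Agilent arrays. The authors deposited a scanner file per array with spot intensity on a linear scale, extracted with Feature Extraction 10.7.1.1 and protocol GE1_107_Sep09 on design 031025, per the file headers. Flags in the deposited files, other values of 0 or 1, mark spots well above background, saturated or outlying. A deposited series table by the authors, in log2 units, served as an alternative.

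Groups and replicate numbers came from the sample titles. The log2 processed signal minus each array's 75th percentile over all spots was averaged over spots per probe, without control spots. The 75th percentile was at a signal of 5252 to 8128, and 0 spots were saturated. A probe counted as well above background when all its spots did. The members and all lists were chosen with earlier results of these data known. Gene lists could not be applied, because probes are not paired with genes. Members named were the first 2 by the smaller line difference among those above background on all 4 ANAC096 line arrays; others are given by rank or by their values and were picked after these were seen.

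For the background shares, limma 3.58.1 in R 4.3.3 fitted group means of all 8 arrays to the 34714 probes (79.6%) above background in both replicates of some group, without outlier spots, with Benjamini-Hochberg adjustment. It was tested on simulated data, where it called a smaller share of the altered probes than first required. The requirement was then lowered. The files hold no mean signal, so normexp (offset 50) used the median signal. The smallest two-sided p that exact permutation allows with 2 arrays a side is 0.333. The limma p-values reflect the spread between replicate arrays, which may be technical, and the number of arrays limits the precision.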

Additional observations from a re-analysis of the deposited data

How the results depend on the processing

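Membership depended on the scaling and the background correction more than on any single array. The 151 probes became 54 with spike-in scaling, 96 with normexp background correction and 93 in the authors' value table, of which 39, 88 and 88 were among the 151. A line threshold of 1 gave 418 and one of 2 gave 61, and an ABA band of 0.5 gave 90. The remaining settings gave counts within 1.5 times of 151, quantile normalization 142 of which 139 were shared, and no level floor 188. Leaving out 1 array at a time gave 144 to 156 probes, and 126 of the 151 stayed members in all 8 of these. With normexp, quantile normalization and the authors' table, which do not shift all probes alike, 151 of 151 were higher in the ANAC096 line both without and with ABA. The members were chosen for line differences of at least 1.5 on these same arrays, so this count is a description and supports nothing. The median line differences were 1.75 and 1.69 with normexp and 1.69 and 1.70 in the authors' table, against 2.07 and 2.02. Counts of called probes in limma were within 1.5 times of the main count except for ANAC096+ABA against ANAC096 with spike-in scaling, at 29946 against 15714, and ABA against control without ABA replicate 1, at 10772 against 16465. Without 1 array they ran from 17260 to 20404 for ANAC096 against control, 10638 to 17015 for ANAC096+ABA against ABA, 11357 to 17392 for ANAC096+ABA against ANAC096, and 10772 to 16439 for ABA against control. The cause was not tested. The samples share only a replicate number: same-numbered arrays of 2 groups deviated together with correlations of -0.087 to 0.064, and a replicate block gave 20098, 14797, 14816 and 15632 calls in that order, against 20612, 15535, 15714 and 16465 without it.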
